A study of Mus musculus with 8 samples.

Results

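The genes described here encode the Kv4 potassium channel complex: the Kcnip genes Kcnip1, Kcnip2, Kcnip3 and Kcnip4, the pore genes Kcnd2 and Kcnd3, and the dipeptidyl peptidase-like genes Dpp6 and Dpp10. They were taken from the count table by symbol, which gave 8 genes of 20578 with a count, and all 8 were among the 10954 genes that passed the filter on low counts. They were measured in RNA from cells sorted for tdTomato fluorescence out of the somatosensory cortex of mice aged 23 to 25 days, in 4 WT and 4 Ptch1cKO libraries. Both groups carried Glast-CreERT2, a tamoxifen-activated Cre recombinase driven by Glast, a glutamate transporter gene of astrocytes that neural progenitors also express, and Ai14, a reporter that makes tdTomato after Cre has acted. Ptch1cKO mice were in addition Ptch1fl/fl, with both copies of the Hedgehog receptor gene Ptch1 floxed, and tamoxifen was injected on days 12 to 14 in both groups. The genotype comparison asks how astrocyte transcripts differ when this brake on Hedgehog signalling is removed after birth. The family was chosen by the fold change and adjusted p of Kcnip3 in this same comparison, known from earlier work on these counts, so the genotype values below describe the genes and support nothing further.

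Kv4 channels carry A-type potassium current, which opens fast on depolarization, inactivates fast and delays firing. Kcnd1, Kcnd2 and Kcnd3 encode the pore-forming subunits Kv4.1, Kv4.2 and Kv4.3. The cytoplasmic Kcnip proteins (KChIPs) are calcium-binding EF-hand proteins of the neuronal calcium sensor family that bind the channel's amino terminus, raise its surface level and change its inactivation. Dpp6 and Dpp10 are single-pass membrane proteins without peptidase activity that speed the channel's gating. Kcnip3 has further names, DREAM and calsenilin, from work that described it as a calcium-regulated transcriptional repressor and as a presenilin partner. In cortex the complex is best known from neurons, in dendrites of pyramidal cells and in interneurons, and Kv4 transcripts have also been described in astrocytes.

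The sequences before the annotated starts of Kcnip3 are shown because it is the member whose libraries separated most by the test, and because its counts sum over transcripts from all of its starts. The gene (chromosome 2, 127456498 to 127522094 of mm10, minus strand) has 3 coding transcripts in GENCODE M21, and no exon of it is shared with another gene. RefSeq on GRCm38.p6, the same assembly as mm10, gave 3 start sites for it. The 250 bases before each start are printed in the direction of transcription, with matches to the searched motifs in capitals. The windows are chr2:127522095-127522344, chr2:127521393-127521642 and chr2:127482500-127482749, all on the minus strand and outside annotated exons of the gene.
Kcnip3 start 1: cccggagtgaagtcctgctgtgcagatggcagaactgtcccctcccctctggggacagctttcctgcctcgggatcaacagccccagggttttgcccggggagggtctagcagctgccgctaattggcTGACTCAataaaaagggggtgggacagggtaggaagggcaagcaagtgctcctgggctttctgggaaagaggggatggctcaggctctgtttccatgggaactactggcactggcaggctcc
Kcnip3 start 2: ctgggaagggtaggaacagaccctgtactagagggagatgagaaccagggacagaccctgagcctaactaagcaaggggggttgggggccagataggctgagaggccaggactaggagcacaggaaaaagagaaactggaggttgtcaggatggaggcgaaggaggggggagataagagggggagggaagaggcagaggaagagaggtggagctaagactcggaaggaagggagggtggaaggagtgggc
Kcnip3 start 3: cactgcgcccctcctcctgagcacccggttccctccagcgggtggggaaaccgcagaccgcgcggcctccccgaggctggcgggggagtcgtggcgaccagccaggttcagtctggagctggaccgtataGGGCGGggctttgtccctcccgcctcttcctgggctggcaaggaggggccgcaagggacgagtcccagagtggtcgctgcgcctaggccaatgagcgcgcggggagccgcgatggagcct
The motifs searched on both strands were the Gli consensus GACCACCCA, the AP-1 site TGACTCA, the cyclic AMP response element TGACGTCA, the GC box GGGCGG and the TATA box TATAAA. The first window held an AP-1 site 122 bases before the start, a motif found in 4.46% of 32851 RefSeq windows of this length. The third held a GC box 120 bases before the start, as did 32.7% of all windows, and the middle one held none of the motifs. The Gli consensus, the binding motif of the Hedgehog pathway's transcription factors, was in 0 of the 3 windows, in 0 of 15 windows of the 8 genes, and in 0.225% of all windows. These are matches of letters in short windows, and counts per gene cannot say which start was used.

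Library totals ran from 4061274 to 7206462 counts. Ptch1 itself had 285, 227, 491 and 425 CPM (counts scaled to library size) in WT, in order of replicate number here and below, and 219, 249, 168 and 258 CPM in the mutant libraries, so the groups overlapped. Its log2 difference was -0.67 (SE 0.22), without passing over all genes (edgeR adjusted p = 0.349). A count over the whole gene still includes transcripts that lack single exons, and their part in these values was not tested. The sorted cells carried all 10 listed astrocyte markers, at a summed 20577 to 30422 CPM in WT and 15796 to 32318 in Ptch1cKO. They also carried all 10 listed neuronal markers, at a summed 4738 to 6299 CPM in WT and 4643 to 5701 in Ptch1cKO, and all 6 listed oligodendrocyte markers, at 13743 to 26610 and 17446 to 23064 CPM. The values below are therefore those of a sorted population with RNA of other cell types, and in such bulk samples fewer cells of a type and less RNA per cell cannot be told apart. WT replicates 2 and 3 held 1148 and 612 Xist counts and no counts of Y-linked Ddx3y, the female pattern, and the other 6 libraries had the male pattern. Whether the libraries stem from different animals is not in the labels, and the p-values cover the spread between these libraries alone.

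Kcnip3 was by far the most abundant member, and it was the one that passed the test, about doubled in the mutant libraries. The WT libraries had 180, 167, 138 and 151 CPM in replicates 1 to 4, and the Ptch1cKO libraries had 287, 389, 277 and 419 CPM. The lowest mutant library lay above the highest WT library, and among the mutants replicates 2 and 4 were the high ones. The means were 159 ± 18.5 CPM (SD, n = 4) across WT and 343 ± 71.6 CPM (SD, n = 4) across Ptch1cKO libraries. This rise of 2.16-fold, or 1.11 on the log2 scale (SE 0.16), passed over all genes at an adjusted p of 0.0155 (quasi-likelihood test of edgeR, adjustment by Benjamini and Hochberg over 10954 genes, as for every edgeR adjusted p below). In the same fit 11 genes, 0.1% of those tested, passed, and since this contrast led to the choice of the gene, nothing further is read from the count of 1 member among them. The depth behind these values was 733 to 2535 counts per library. The rise was of similar size under every setting tried, from 0.97 to 1.20 on the log2 scale. Adjusted p-values over the 16 alternatives ran from 3.71e-10 (edgeR without the filter on low counts) to 0.361 (limma). The call was lost without WT replicate 2, 3 or 4 or without Ptch1cKO replicate 4 (edgeR adjusted p = 0.0679, 0.0676, 0.0754 and 0.0751) and in the 6 libraries of the male pattern, at 1.05 (SE 0.21, edgeR adjusted p = 0.19). The WT libraries of the male pattern had 151 and 180 CPM of Kcnip3. That they lay below all 4 mutants follows from every WT library doing so and adds nothing. On the authors' deposited TPM, tested as log2(TPM + 1) with limma, the log2 difference was 0.97 (SE 0.17) without passing (Benjamini-Hochberg adjusted p = 0.167).

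**Figure D1:**
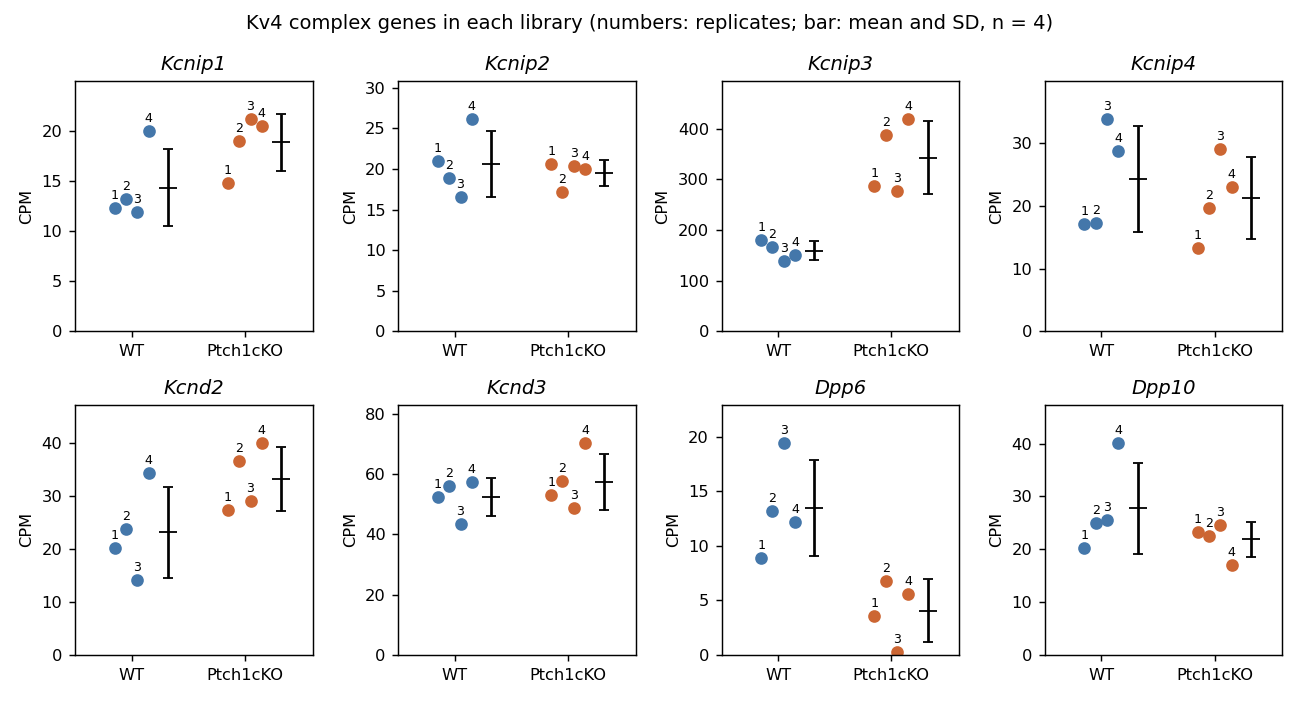
CPM of each of the 8 genes in each library (y axis, linear from 0; points are libraries numbered by replicate, blue WT and orange Ptch1cKO; bars are mean and SD, n = 4). For Kcnip3 the 4 Ptch1cKO libraries sit at 277 to 419 CPM above all WT libraries at 138 to 180 CPM, for Dpp6 they sit below, and the other 6 genes overlap between groups.

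The other Kcnip genes were expressed at a small fraction of the Kcnip3 level, and their groups overlapped. Kcnip1 (chromosome 11, 33629339 to 33993152, minus strand), known as the KChIP of many inhibitory interneurons, had 12.3, 13.2, 11.9 and 20.0 CPM in WT replicates 1 to 4 and 14.8, 18.9, 21.2 and 20.5 CPM in the mutants. WT replicate 4 lay among the mutant values, far above the other WT libraries, and the log2 difference was 0.40 (SE 0.24, edgeR adjusted p = 0.645). Kcnip2 (chromosome 19, 45791839 to 45816061, minus strand), the main KChIP of heart and also present in cortical neurons, had 21.0, 18.9, 16.5 and 26.1 CPM in WT and 20.6, 17.2, 20.4 and 20.0 CPM in the mutants. The mutant libraries lay inside the WT range, and the log2 difference of -0.07 (SE 0.21, edgeR adjusted p = 0.959) was smaller than its error. In the 6 libraries of the male pattern the WT values of 21.0 and 26.1 CPM lay above all 4 mutants, with a log2 difference of -0.27 (SE 0.25, edgeR adjusted p = 0.839). This order rests on 2 WT libraries, its share over all genes was not counted, and nothing is read from it. Kcnip4, a KChIP with an isoform that suppresses fast inactivation, had 17.2, 17.3, 33.8 and 28.8 CPM in WT and 13.3, 19.6, 29.0 and 22.97 CPM in the mutants. Each group held both low and high libraries, and the log2 difference was -0.20 (SE 0.28, edgeR adjusted p = 0.877). Exons of Kcnip4 (chromosome 5, 48389502 to 49524907, minus strand) overlap the opposite-strand genes 5730480H06Rik and Gm20700, and no source used here gives the strand setting of the counting. The spread of Kcnip4 between libraries was a coefficient of variation of 34.6% in WT and 30.8% in Ptch1cKO, where counting alone would give 8.21% and 9.28%. For Kcnip2 in Ptch1cKO the spread of 8.12% was no larger than the 9.45% from counting.

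Kcnip3 therefore took a larger share of the summed Kcnip transcripts in every mutant library. On the TPM scale, which corrects for transcript length, it made up 73.1, 72.2, 63.5 and 60.8% of the TPM of the 4 Kcnip genes in WT, and 81.8, 84.4, 75.3 and 83.7% in the mutants. The groups did not overlap, and since the rise of Kcnip3 sets this share it is not a separate result. The summed TPM of the other Kcnip genes was 59.9 ± 13.2 in WT and 55.1 ± 6.59 in Ptch1cKO (SD, n = 4), with overlapping ranges.

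The pore genes Kcnd2 and Kcnd3 had higher means in the mutants, with overlapping groups. Kcnd2 (chromosome 6, 21215503 to 21729805, plus strand), encoding Kv4.2, the main dendritic A-type channel of pyramidal neurons, had 20.2, 23.7, 14.1 and 34.4 CPM in WT replicates 1 to 4 and 27.3, 36.5, 29.0 and 40.0 CPM in the mutants. The overlap came from WT replicate 4, which lay above Ptch1cKO replicates 1 and 3. Its log2 difference was 0.53 (SE 0.25, edgeR adjusted p = 0.541), and it was 0.78 (SE 0.24) without WT replicate 4 (edgeR adjusted p = 0.354, the lowest of 16 alternatives). It was 0.35 (SE 0.23) without WT replicate 3, the lowest library (edgeR adjusted p = 0.671), and 0.29 (SE 0.28) in the 6 libraries of the male pattern (edgeR adjusted p = 0.842, the highest of the alternatives). Kcnd3, encoding Kv4.3, had 52.5, 56.1, 43.5 and 57.4 CPM in WT and 53.0, 57.9, 48.7 and 70.4 CPM in the mutants. Ptch1cKO replicate 4 was the high library there, and the log2 difference was 0.14 (SE 0.17, edgeR adjusted p = 0.859). Exons of Kcnd3 (chromosome 3, 105452330 to 105674002, plus strand) overlap the opposite-strand gene Kcnd3os. The remaining Kv4 pore gene, Kcnd1, had between 10 and 61 counts, with 1.40 to 11.1 CPM in WT and 2.98 to 15.0 CPM in Ptch1cKO, and a log2 difference of 0.48 (SE 0.57, edgeR adjusted p = 0.855). Kcnd1 was the most variable of the Kv4 pore genes, with coefficients of variation of 78.5% and 67.7% against 18.1% and 16.0% from counting.

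Dpp6 was the other gene whose groups did not overlap, and it was lower in the mutants. It lies on chromosome 5 at 26817203 to 27727505, plus strand, with 4 coding transcripts and no exon overlap with another gene. It had 8.92, 13.2, 19.4 and 12.1 CPM in WT replicates 1 to 4 and 3.55, 6.78, 0.246 and 5.62 CPM in the mutants. All 4 mutant libraries lay below the lowest WT library, and Ptch1cKO replicate 3, the library with the smallest total, was lowest of all. Groups failed to overlap for 5.02% of the genes tested, in either direction, and for 2 of the 8 genes here, 1 of which was the reason for the choice. The underlying counts were 53, 84, 139 and 59 in WT and 25, 39, 1 and 34 in Ptch1cKO. The means were 13.4 ± 4.40 and 4.05 ± 2.86 CPM (SD, n = 4), and the log2 difference was -1.69 (SE 0.49). It did not pass over all genes (edgeR adjusted p = 0.325), and 9.34% of all genes had an unadjusted p under 0.05, as Dpp6 did at 0.00407. Without Ptch1cKO replicate 3 the log2 difference was -1.34 (SE 0.35, edgeR adjusted p = 0.304). Without the filter on low counts Dpp6 was called (edgeR adjusted p = 0.000354), a setting that called 199 genes and in which 25 of 135 calls were false on simulated data. DESeq2, which called 0.609% of its genes, gave Dpp6 -1.71 (SE 0.49) without a call (Benjamini-Hochberg adjusted p = 0.0623), and over all 16 alternatives its adjusted p ran from 0.000354 to 0.63.

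Dpp10 (chromosome 1, 123321471 to 124045559, minus strand), the counterpart of Dpp6 in accelerating Kv4 gating, had 20.2, 24.99, 25.6 and 40.1 CPM in WT replicates 1 to 4 and 23.3, 22.6, 24.6 and 17.0 CPM in the mutants. WT replicate 4 was high and the other 7 libraries lay between 17.0 and 25.6 CPM, with a log2 difference of -0.34 (SE 0.23, edgeR adjusted p = 0.702). It was -0.11 (SE 0.21) without WT replicate 4 (edgeR adjusted p = 0.915, the highest of 16 alternatives that went down to 0.587). In TPM, Dpp6 and Dpp10 together per summed TPM of the 3 Kv4 pore genes came to 0.434, 0.459, 0.870 and 0.496 in WT and to 0.376, 0.304, 0.256 and 0.211 in Ptch1cKO. The mutant libraries were all below the WT libraries in this ratio, which combines the lower Dpp6 and Dpp10 means with the higher Kcnd means. Dpp6, whose groups already did not overlap, enters this ratio, so it is not a separate result. The same ratio for the 4 Kcnip genes was 4.69 ± 1.31 in WT and 6.20 ± 0.839 in Ptch1cKO (SD, n = 4), with overlapping ranges. Transcript ratios after exon capture depend on the capture of each gene and are not ratios of subunits.

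**Figure D2:**
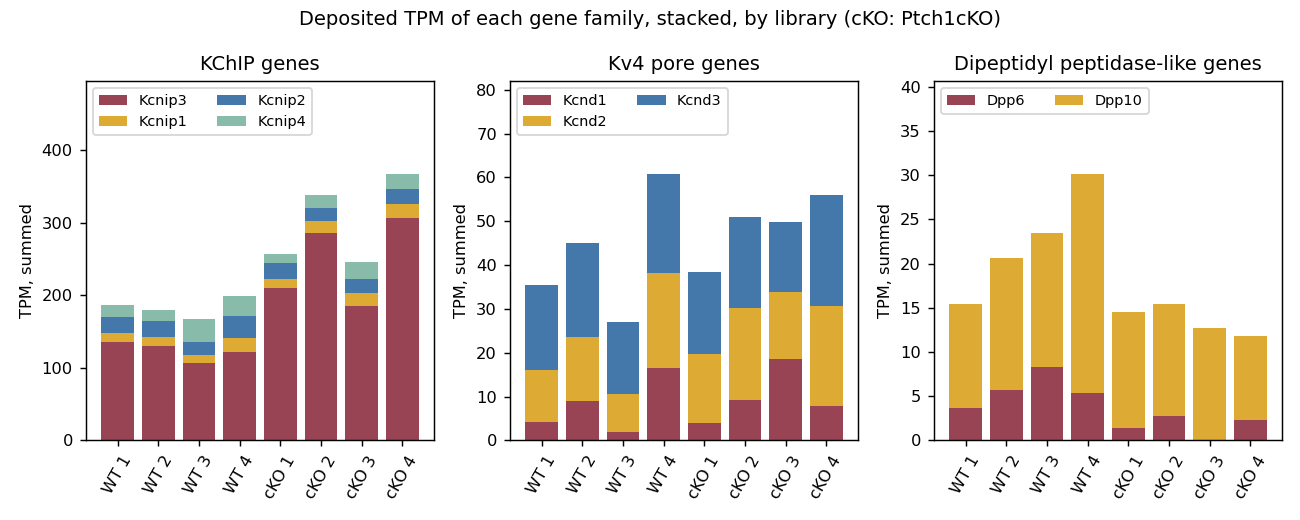
Deposited TPM (y axis, from 0) of the 4 Kcnip genes, the 3 Kv4 pore genes and the Dpp genes, stacked for each of the 8 libraries (x axis; cKO is Ptch1cKO). Kcnip3 fills 60.8 to 73.1% of the Kcnip bar in WT and 75.3 to 84.4% in Ptch1cKO, and Dpp6 is the smaller part of the Dpp bar in each library, at 0.713% in Ptch1cKO replicate 3.

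Levels between genes were compared in the authors' deposited TPM. Kcnip3 was the highest of these genes and Kcnd1 in 8 of 8 libraries, at 124 ± 12.9 TPM in WT and 247 ± 58.5 TPM in Ptch1cKO (SD, n = 4), above 88.8% and 94.7% of the genes tested. Dpp6 was the lowest in 7 of 8 libraries, at 5.75 ± 1.88 TPM in WT and 1.63 ± 1.16 TPM in Ptch1cKO (SD, n = 4), and Kcnd1 was lowest in the other. Between them the order in WT was Kcnip2 at 23.2, Kcnip4 at 22.9, Kcnd3 at 19.9, Dpp10 at 16.6, Kcnd2 at 14.1, Kcnip1 at 13.7 and Kcnd1 at 7.98 mean TPM. Neighbours in that order had overlapping ranges throughout, and the range of Kcnip3 lay above all of them. The WT range of Dpp6, 3.71 to 8.26 TPM, overlapped that of Kcnd1 and lay below those of the other members. The nearest of these was Kcnd2, with a WT minimum of 8.52 TPM. In Ptch1cKO the order was Kcnip2 at 20.2, Kcnd3 at 20.2, Kcnd2 at 18.7, Kcnip4 at 18.3, Kcnip1 at 16.5, Dpp10 at 11.998 and Kcnd1 at 9.96 mean TPM. There the range of Dpp10 lay below that of Kcnip1, and that of Dpp6 below that of Kcnd1, without overlap. The TPM of the other genes also leave Kcnd2 and Kcnd3 at similar levels, although Kcnd3 had about double the CPM, because TPM divides by transcript length.

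Of the 8 genes, 4 had positive and 4 negative log2 differences, with a median of 0.03 against -0.0019 over all genes tested, of which 49.6% were positive. The family did not move as a block: Kcnip3 and Dpp6 lay at its ends and the other 6 between -0.34 and 0.53. Across 16 alternative settings Kcnip1, Kcnip3, Kcnd2, Kcnd3, Dpp6 and Dpp10 kept their direction, and Kcnip2 and Kcnip4, both near 0, changed sign when 1 WT library was left out (0.06 for Kcnip2 without WT replicate 4, 0.01 for Kcnip4 without WT replicate 3). In the 6 libraries of the male pattern the log2 difference was 0.23 for Kcnip1, -0.12 for Kcnip4, 0.07 for Kcnd3, -1.34 for Dpp6 and -0.46 for Dpp10, and none of these passed (edgeR adjusted p from 0.63 to 0.961).

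**Figure D3:**
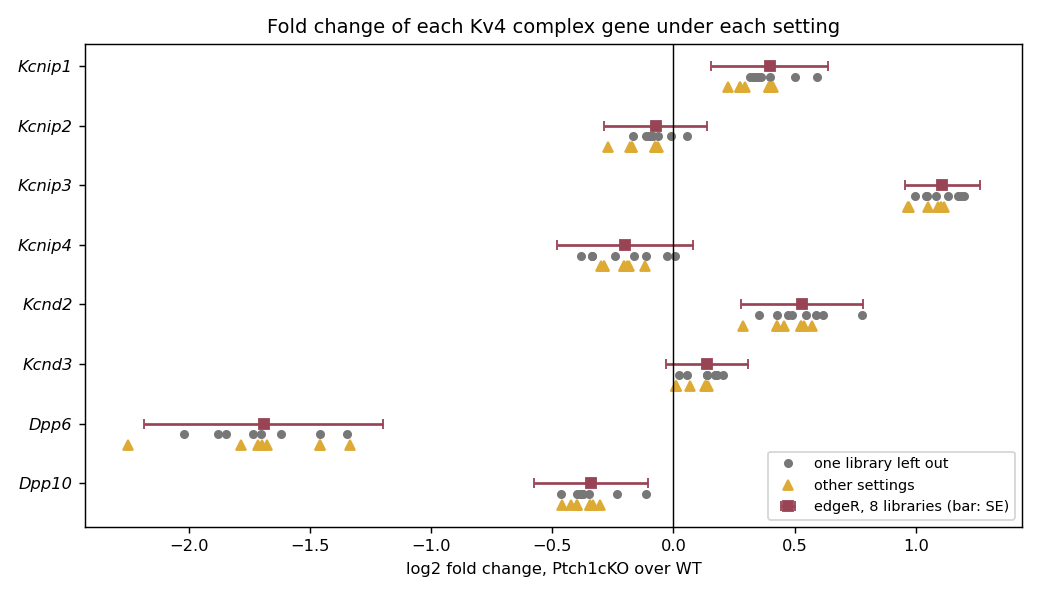
Log2 difference of each of the 8 genes, Ptch1cKO over WT (x axis), with all 8 libraries (squares, bar SE), with 1 library left out (circles) and under the other settings (triangles). Kcnip3 stays between 0.97 and 1.20 and Dpp6 between -2.25 and -1.34, and the remaining genes lie within 0.78 of 0.

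The marker levels of other cell types are given beside these values because several members are known from neurons. Summed neuronal markers were 5452 ± 658 CPM in WT and 5130 ± 466 CPM in Ptch1cKO, and summed interneuron markers 160 ± 29.8 and 144 ± 25.5 CPM (SD, n = 4), with overlapping ranges. Of 10 neuronal markers, 4 had positive and 6 negative log2 differences. Of 10 astrocyte markers 8 were positive and 2 negative, and of 6 oligodendrocyte markers 5 were positive and 1 negative. Summed oligodendrocyte precursor markers were 84 to 153 CPM in WT and 116 to 178 CPM in Ptch1cKO, with 5 of 5 tested markers positive, and microglial markers were 220 to 456 and 260 to 566 CPM, with 8 of 8 positive. Summed endothelial and mural markers were 20.2 to 33.5 and 12.3 to 29.4 CPM. No listed marker was at 0 in every library, and the interneuron marker Vip and the endothelial marker Cldn5 were at 0 in some. Ptch1cKO replicate 3, in which Dpp6 had 1 count, had 5701 CPM of neuronal markers, the highest of the mutants, and 15796 CPM of astrocyte markers, the lowest of all 8 libraries. Most of that astrocyte sum was Slc1a2, at 9327 CPM there and 14310 to 24561 CPM in the other libraries. Slc1a3, at 690 CPM, was also lowest there, and the remaining listed astrocyte markers were not. WT replicate 4, in which Kcnip1, Kcnip2, Kcnd2, Kcnd3 and Dpp10 had their highest WT value, had 6299 CPM of neuronal markers, the highest of all libraries. The part of other cell types in these values was not tested.

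Related genes were read from 6 lists written for this family. Over all genes 0 of their members passed by edgeR, by DESeq2 or by limma on log2(TPM + 1). Of 18 tested pore subunits of voltage-gated potassium channels outside the 8 genes, Kcnd1 included, 0 passed over all genes by edgeR. An unadjusted p under 0.05 was found for 3 of them (9.34% of all genes tested had one). Fold changes were positive for 5 and negative for 13 (49.6% of all genes tested were positive), with a median of -0.08. Kcnq5, an M-current channel gene, had 29.4 ± 4.63 CPM (SD, n = 4) across WT and 19.6 ± 1.98 CPM (SD, n = 4) across Ptch1cKO libraries without overlap, a log2 difference of -0.59 (SE 0.20, edgeR adjusted p = 0.378). Groups did not overlap in either direction for 5.02% of all genes tested. Of 5 tested auxiliary subunits of other channels 0 passed and 0 had an unadjusted p under 0.05 (edgeR), and the beta subunits Kcnab1 and Kcnab3 had -0.45 (SE 0.32) and -0.29 (SE 0.24). The other 8 genes of this list, Kcne1 to Kcne4 among them, were below the filter or not found under the listed symbol.

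Other neuronal calcium sensor genes, the EF-hand relatives of the Kcnip family, were next read. Of 6 tested, 0 passed over all genes by edgeR, and Hpcal4 was the 1 gene with an unadjusted p under 0.05 (9.34% of all genes tested did). It had 642 ± 82.6 CPM (SD, n = 4) across WT and 817 ± 54.4 CPM (SD, n = 4) across Ptch1cKO libraries, a log2 difference of 0.35 (SE 0.12, edgeR adjusted p = 0.396). Its groups did not overlap, as in either direction for 5.02% of all genes tested. Ncs1, a calcium sensor that also binds Kv4 channels, had -0.21 (SE 0.15). The median of the list was 0.18.

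Partners and reported targets of Kcnip3 gave 8 negative and 1 positive fold changes among 9 tested genes, with a median of -0.22 (49.6% of all genes tested were positive). By edgeR 0 of them passed over all genes and 2 had an unadjusted p under 0.05, against 9.34% of all genes tested, so no member is described as changed. Slc8a3, a sodium-calcium exchanger reported as a DREAM target, had 13.5 ± 3.79 CPM (SD, n = 4) across WT and 7.67 ± 2.70 CPM (SD, n = 4) across Ptch1cKO libraries, a log2 difference of -0.81 (SE 0.32, edgeR adjusted p = 0.445). Atf6, a transcription factor of the unfolded protein response, had 55.8 ± 3.86 and 41.6 ± 5.16 CPM (SD, n = 4), a log2 difference of -0.42 (SE 0.16, edgeR adjusted p = 0.432). Both had all mutant libraries below all WT libraries, as groups did not overlap in either direction for 5.02% of all genes tested. Pdyn, the prodynorphin gene in which the DREAM binding element was described, as well as Npas4 and the presenilin gene Psen2, were below the filter on low counts of the edgeR fit. DESeq2 tested all 12 genes of the list and limma 11, and each called 0. Psen2 averaged 0.560 ± 0.319 CPM (SD, n = 4) across WT and 1.95 ± 0.596 CPM (SD, n = 4) across Ptch1cKO libraries without overlap, the direction opposite to most of the list. These are very low values, and the 5.02% covers tested genes only, so nothing is read from Psen2.

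Of the 4 tested dipeptidyl peptidase relatives 0 passed by edgeR and 1 had an unadjusted p under 0.05 (9.34% of all genes tested did). Prep, a cytosolic prolyl peptidase, had 11.0 ± 2.39 CPM (SD, n = 4) across WT and 16.5 ± 1.75 CPM (SD, n = 4) across Ptch1cKO libraries. Its groups did not overlap (5.02% of all genes tested, in either direction), with a log2 difference of 0.58 (SE 0.24), and Dpp9 had 0.49 (SE 0.30). Among 11 anchoring and modulating proteins of Kv4 channels 0 passed by edgeR and 1 had an unadjusted p under 0.05 (9.34% of all genes tested did). Values were positive for 2 and negative for 9 (49.6% of all genes tested were positive), with a median of -0.21. A gene of this list not named here had groups without overlap, as did 5.02% of all genes tested. The kinase gene Camk2d had -0.38 (SE 0.17) and the actin cross-linker Flna -0.60 (SE 0.29). Camk2a, a kinase of excitatory neurons on the same list, stood at 9389 ± 530 CPM (SD, n = 4) across WT and 9304 ± 936 CPM (SD, n = 4) across Ptch1cKO libraries, a level named here after it was seen.

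**Figure D4:**
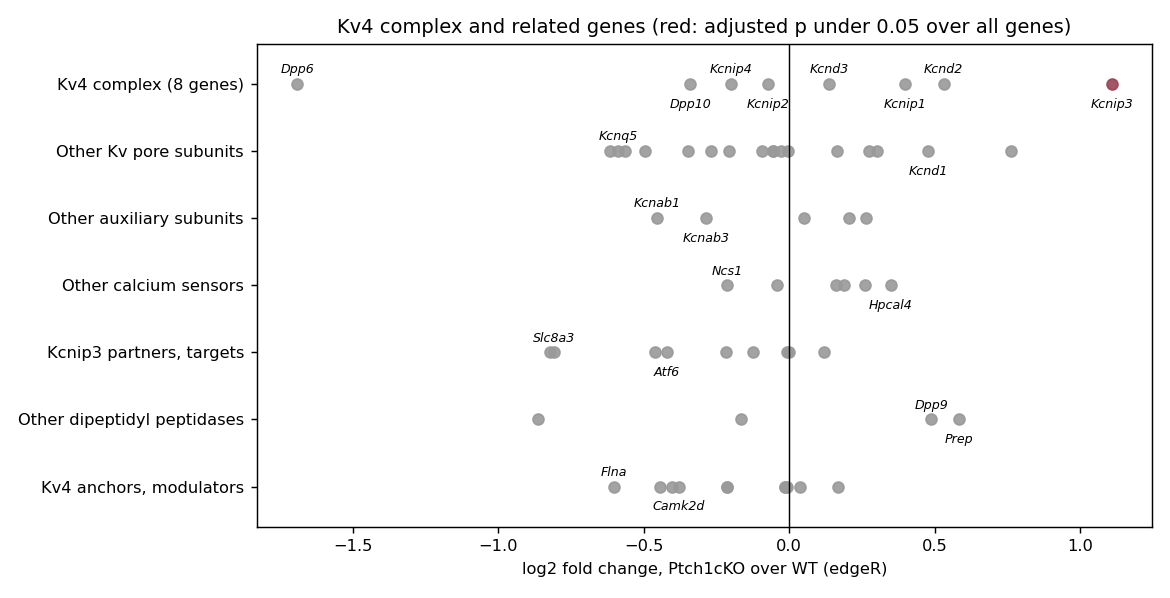
Log2 difference, Ptch1cKO over WT by edgeR (x axis), of the 8 genes (top row) and of the tested members of the 6 related lists that are reported here (other rows), 1 point per gene, with the genes named in the text labelled. Kcnip3 is the one point that passed over all genes (red), and related genes lie between -0.86 and 0.76.

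The genes with a pattern most like Kcnip3 over the 8 libraries were Sparc, Atp2b4, Plce1, Gcsh, Arf4 and Cd81, by Pearson's r of log2(CPM + 1) among 6755 other genes that averaged 10 CPM or more. For them r was 0.98, 0.97, 0.96, 0.95, 0.95 and 0.95, as a description over libraries of both groups, so a difference by genotype raises it. All 6 had their mutant libraries above their WT libraries. After subtracting each group's mean, so that only the spread within groups was left, r to Kcnip3 was 0.87 for Sparc, a secreted matricellular protein, 0.85 for Atp2b4, a plasma membrane calcium pump, and 0.72 for Plce1, a phospholipase. It was 0.81 for Gcsh, 0.75 for Arf4 and 0.60 for Cd81. The 6 genes were chosen by r in these same libraries, so these values are not independent of that choice. Ranked by that second measure the genes most like it were Slc25a16, Mgea5, a row whose symbol had become a date, Kansl1l, Bbip1 and Phactr2, at 0.98, 0.95, 0.93, 0.93, 0.93 and 0.92. Their groups overlapped, and none of them was among the first 6. Within groups Kcnd3 was the member most like Kcnip3, at 0.80, with 0.49 for Kcnd2, 0.10 for Kcnip1, -0.09 for Kcnip2, -0.29 for Kcnip4 and -0.57 for Dpp10. Dpp6 averaged under 10 CPM and was not in this ranking. These values rest on 8 libraries that share their depth and cell make-up across genes.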

How the data were processed

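RNA of 8 sorted samples was amplified as cDNA and enriched by exome capture, per the labels' protocols. Per the submitters' processing notes, bcl2fastq 2.18, STAR 2.5 and the build mm10 were used. The counting program, annotation, strand setting and the making of TPM are named in no source used here. The deposited count values are raw whole reads per gene symbol (24047 rows), and the authors' deposited TPM cover 23585 rows.

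Counts were fitted in R 4.3.3 with edgeR 4.0.16: filterByExpr by group (minimum count 10), TMM factors, and the robust quasi-likelihood test with group as the only term. A gene was called where its p, adjusted by Benjamini and Hochberg over 10954 genes, was under 0.05. SE is the log2 fold change divided by the square root of F. CPM use the scaled library sizes. DESeq2 1.42.0 and limma 3.58.1 (log2 of TPM plus 1 or 0.1, with a minimum of 1 TPM in 4 libraries or no minimum) served as alternatives. On simulated data with 200 changed genes, edgeR recovered 44% of those changed 2-fold (10738 genes tested, 7 of 115 calls false). No 2 libraries of the same group matched as duplicates by a chi-square test (at least 10.4 per degree of freedom).

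The members and lists were chosen with earlier results of these data known. Named genes were the 8 members, Ptch1, Kcnd1, called genes and the 2 smallest p of each list, and the 6 genes most like Kcnip3 by each measure; Camk2a, Pdyn, Psen2, Npas4, Vip, Cldn5, Xist, Ddx3y and genes named as exon overlaps or as below the filter fall outside that rule. One gene that the rule names is not reported here. Column prefixes group libraries within a genotype, and no source used here says what they mean, so such grouping and genotype cannot be told apart.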

Additional observations from a re-analysis of the deposited data

Results flagged for a closer look

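Kcnip1 in WT replicate 4, at 20.0 CPM, stood far from the other WT libraries at 11.9 to 13.2 CPM: its gap to the nearest of them was 0.837 of the group's range, above the 95% critical value of Dixon for 4 samples. Chance flags about 1 in 20 such groups, and 20 were looked at. In the same library summed neuronal markers were 6299 CPM, the highest of the 8, and their part was not tested.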

How the results depend on the processing

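The number of genes called moved most: 11 by edgeR with all 8 libraries, 79 by DESeq2, 199 without the filter on low counts, 3 in the 6 libraries of the male pattern, 2 by limma on log2(TPM + 1) as on log2(TPM + 0.1), 0 by limma without a minimum (1545 genes with an unadjusted p under 0.05), and 1 to 19 when single libraries were left out. Kcnip3 kept its direction in all 16 alternatives. Its log2 fold change was 0.997 to 1.20 with single libraries left out. Without WT replicate 2, 3 or 4 or Ptch1cKO replicate 4 it was not called (edgeR adjusted p = 0.0679, 0.0676, 0.0754 and 0.0751). It was also not called in the 6 libraries (1.05), nor by limma on log2(TPM + 1) (0.97), log2(TPM + 0.1) (0.97) or log2(TPM + 1) without a minimum (0.97). The 6 libraries and the fits with a library left out held fewer samples. Without WT replicate 1 or Ptch1cKO replicate 1, 2 or 3 Kcnip3 stayed called (edgeR adjusted p = 0.0375, 0.018, 0.018 and 0.00933). The cause of the lost calls was not tested in any setting. With single libraries left out, Kcnip2 had -0.17 to 0.0568 and Kcnip4 -0.38 to 0.00722, and each turned positive without 1 WT library (replicate 4 and replicate 3). With the replicate number as a block, 5 genes were called, and Kcnip3 had 1.09 (edgeR, Benjamini-Hochberg adjusted p = 0.0467). Same-numbered libraries correlated at -0.166 to 0.018 in their deviations from group means, so the numbers were not taken as pairs. Low depth limits Dpp6 (1 to 139 counts per library) and Kcnd1 (10 to 61) most.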
